A study of Mus musculus with 2 samples.

Results

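Growth factor transcripts were followed through single T cells of the infarcted mouse heart: Areg, Hbegf, Pdgfb, Igf1, Osm and Lif. They are 6 of the 55357 genes in the count tables, taken as secreted factors by which cells of a wound can act on heart tissue, and each was found by its symbol in both libraries. Source cells were told apart by marker gates, which are sets of cells chosen by a UMI of Foxp3, of Trdv4 or Trgv6, of Cd4, of Cd8b1, or by macrophage and other marker lists. A UMI is a molecular tag that counts 1 captured transcript once.

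Areg encodes amphiregulin and Hbegf encodes heparin-binding EGF-like growth factor. Both are made as membrane-bound ligands, are released by proteases such as ADAM17, and act on the EGF receptor of fibroblasts, epithelium and other cells. Regulatory T cells that live in tissues are known for making amphiregulin in muscle, lung and skin repair. Pdgfb encodes a subunit of platelet-derived growth factor, by which endothelium recruits pericytes. Igf1 encodes insulin-like growth factor, a product of repair macrophages and fibroblasts. Osm and Lif encode oncostatin M and leukaemia inhibitory factor, cytokines of the IL-6 family that signal through the shared receptor subunit gp130 (gene Il6st) and are known to act on cardiomyocytes.

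Both libraries came from hearts of wild-type mice 7 days after myocardial infarction, 1 from mice injected with anti-IgG, the control antibody, and 1 from mice injected with anti-PD1, an antibody against the inhibitory T cell receptor PD-1. All mice had the infarction, no unoperated heart was among the samples, and the labels do not say how many hearts went into each library. The labels call the cells T cells and the design text calls them sorted, while the protocol names tissue digestion and the removal of erythrocytes and dead cells but no sort. With 1 library per antibody, no difference between antibodies can be tested, and antibody, animals and library cannot be told apart.

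After cell filters the anti-IgG library kept 4309 cells and the anti-PD1 library 5835, with a median of 4079 and 3858 UMIs per cell. A UMI of Cd3d, Cd3e or Cd3g, the defining T cell genes, was found in 92.6% and 91.7% of them. Of these, 3766 and 5013 cells carried no other cell class's markers and are called Cd3 cells here. They held 17758834 and 22392962 UMIs at a median depth of 3962.5 and 3742. Barcodes numbering 47 were present in both libraries, and leaving them out moved the Areg ratio below from 4.65 to 4.63. Levels are given in CPM, a gene's UMIs per 1000000 UMIs of the same cells. Brackets hold 95% intervals, exact Poisson for levels, exact binomial (Clopper-Pearson) for shares and exact conditional binomial for ratios. They cover counting error only, not the spread between animals, and are too narrow where a few cells hold many of a gene's UMIs.

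Areg lies on chromosome 5 (GRCm38, chr5:91139599-91148432, plus strand). Its promoter is shown because some, not all, binders of the cAMP response element (CRE) were higher alongside it in the anti-PD1 library, as given below. The 300 bases from 250 before to 50 after the start site (RefSeq, GRCm38.p6, chr5:91139349-91139648, plus strand) read, with the full CRE in capitals:
Areg: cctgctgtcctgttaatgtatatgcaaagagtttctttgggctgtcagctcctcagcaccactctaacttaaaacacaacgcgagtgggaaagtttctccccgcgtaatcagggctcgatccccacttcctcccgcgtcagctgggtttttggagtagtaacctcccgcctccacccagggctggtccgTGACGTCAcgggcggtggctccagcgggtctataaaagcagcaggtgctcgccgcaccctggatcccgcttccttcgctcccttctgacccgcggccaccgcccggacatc
The palindrome TGACGTCA begins 61 bases before the start site. It was found in 588 of 32851 promoters of this length, or 1.79%, searched on both strands.

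Entries were also held for Igf1 and Lif, and neither has that CRE. Each has 1 match to the AP-1 motif TGANTCA, which 7.81% of promoters have, and both windows are shown so that the match can be compared:
Igf1: gagctggaactTGAATCActattctggat
Lif: ccagtcagctgTGACTCAggccatagtgg
The capitals mark the motif. The Igf1 window is chr10:87861063-87861091 and the Lif window chr11:4257329-4257357, both on the plus strand. Lif (chr11:4257557-4272514) and Osm (chr11:4236420-4241026), members of 1 cytokine family, are neighbours on that strand with 16530 bases between them. Igf1 lies at chr10:87858265-87937042 on the plus strand and Pdgfb at chr15:79995874-80014977 on the minus strand. A motif match is a description of letters and not evidence of binding.

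Areg was the member that differed most between the libraries. In Cd3 cells it gave 494 UMIs in the anti-IgG library, or 27.8 CPM (25.4 to 30.4), and 2898 in the anti-PD1 library, or 129 CPM (125 to 134). The anti-PD1 level was 4.65 times the anti-IgG level (4.23 to 5.13), the 25th highest ratio among 11920 genes with 50 or more summed UMIs. Of those genes 6.27% were at least 1.5-fold higher and 9.74% at least 1.5-fold lower in the anti-PD1 library, and the median log2 ratio was -0.10. Of the 6 members, 4 reached 50 UMIs, of which Areg and Hbegf were at least 1.5-fold higher and none was 1.5-fold lower. These 4 had a median log2 ratio of 0.21. The share of Cd3 cells with an Areg UMI was 2.95% (2.43 to 3.54) in the anti-IgG library against 8.48% (7.72 to 9.28) after anti-PD1, and 1.23% against 4.49% once each cell was thinned to 1000 UMIs.

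**Figure D1:**
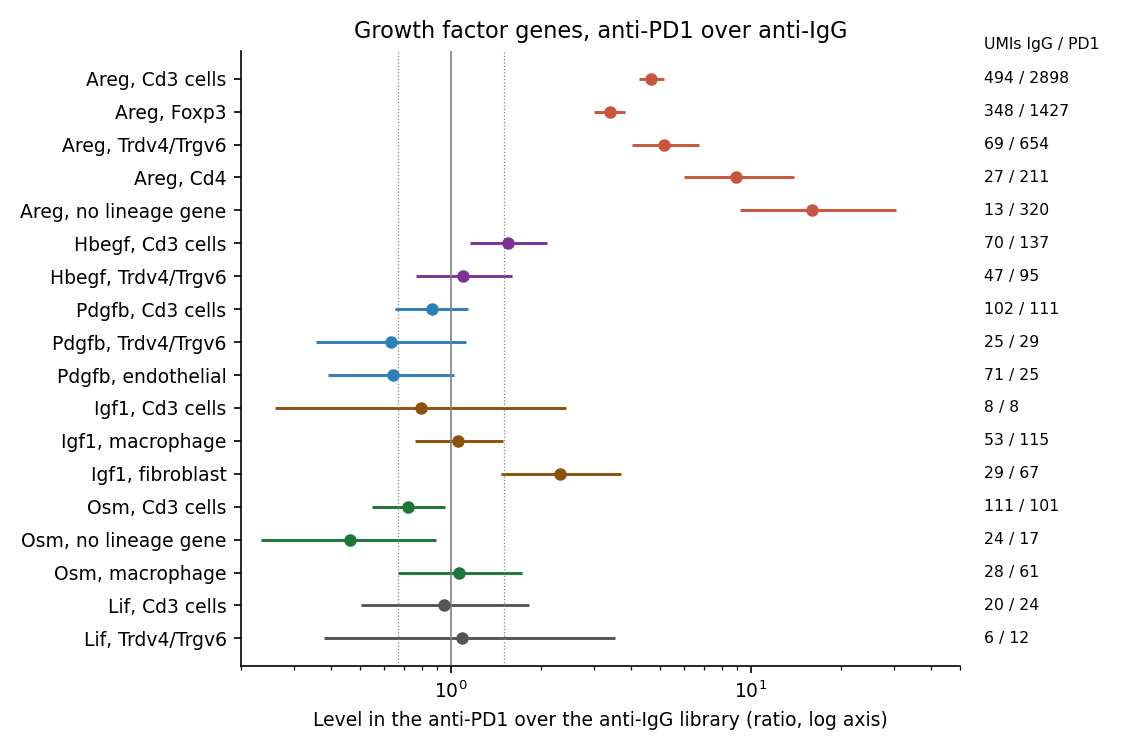
Ratio of each gene's level in the anti-PD1 over the anti-IgG library (log axis), in Cd3 cells and in chosen gates. Bars are 95% counting intervals, and UMI numbers stand at the right. Cells with Cd3 and another class's markers, not drawn, held 62.9% and 43.4% of Igf1 UMIs and 14.8% and 32.7% of Osm UMIs. For Osm the Cd4 gate is not drawn either. The solid line marks equal levels and the dotted lines 1.5-fold. All 5 Areg intervals lie above 3, whereas those of Hbegf, Pdgfb, Osm and Lif lie near or across 1.

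Within Cd3 cells the Foxp3 gate, chosen by the lineage transcription factor of regulatory T cells, had the highest Areg level in both libraries. Its 247 anti-IgG cells held 348 UMIs, or 227 CPM (204 to 252), and its 302 anti-PD1 cells held 1427, or 770 CPM (731 to 811). The ratio was 3.39 (3.01 to 3.82), where 5.3% of the 7111 genes measured in this gate were 1.5-fold higher or more. The gate made up 6.56% and 6.02% of Cd3 cells but 70.4% and 49.2% of their Areg UMIs. It did not exclude Cd8b1. Among its anti-IgG cells 29.5% of those with an Areg UMI and 17.7% of those without had a Cd8b1 UMI. Among its anti-PD1 cells these shares were 22.9% and 22.8%. For Cd4 they were 78.7% and 60.8% in the anti-IgG and 62.5% and 46.8% in the anti-PD1 library. Whether cells with Cd8b1 are doublets was not tested.

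More Foxp3-gated cells were positive and those that were positive held more. An Areg UMI was found in 61 of the anti-IgG cells, or 24.7% (19.4 to 30.6), and in 144 of the anti-PD1 cells, or 47.7% (41.9 to 53.5). With each cell thinned to 1000 UMIs the shares were 10.5% and 28.6%. Median depth in the gate was 4652 and 4956.5 UMIs, so depth differed little. The level within positive cells was 721 and 1412 CPM. The median count per positive cell was 4 and 4.5 UMIs, at median depths of 7869 and 5599.5. Cells with 20 or more Areg UMIs numbered 2 and 15, and the single highest cell held 28 and 103. B cells served as the measure of stray RNA: 0 of 56 and 0 of 131 B-gated cells had an Areg UMI, which, with 3 counts as the limit of a count of 0, allows shares of up to 5.36% and 2.29%, at median depths of 2717.5 and 2397.

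**Figure D2:**
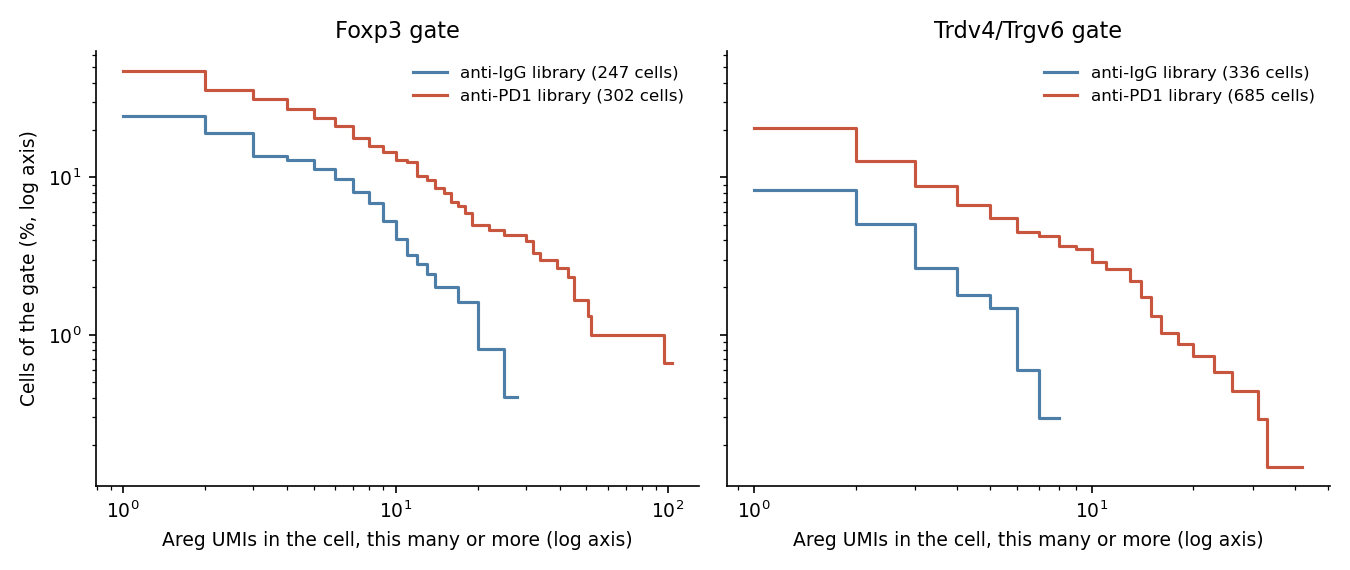
Share of cells (log axis) holding at least the number of Areg UMIs on the x axis (log axis), in the Foxp3 gate and in the Trdv4/Trgv6 gate, by library. The anti-PD1 curve lies above the anti-IgG curve over the whole range, and its tail reaches 103 UMIs in the Foxp3 gate against 28.

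Il1rl1 (the IL-33 receptor ST2) and Klrg1 mark regulatory T cells of tissues, and the Foxp3 gate was split by a UMI of either. The marked cells numbered 117 and 141 and had the higher Areg level, 343 CPM (306 to 383) in the anti-IgG and 1131 (1069 to 1197) in the anti-PD1 library. Of them 42.7% and 68.8% were Areg-positive. The cells without either marker, 130 and 161, had 57.8 (40.5 to 80.1) and 280 (244 to 319) CPM, with 8.46% and 29.2% positive. Areg was thus higher in the anti-PD1 library in both subsets of the gate, 3.30 times (2.91 to 3.75) with the markers and 4.84 times (3.39 to 7.09) without. The marked cells were deeper, at medians of 6364 and 6401 UMIs against 3643.5 and 3570, and the split is read from the same counts.

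The second source was the Trdv4/Trgv6 gate, cells with a UMI of the delta or gamma chain segment of a gamma-delta T cell subset known for IL-17. The 336 anti-IgG cells held 69 Areg UMIs, or 37.1 CPM (28.8 to 46.9), and the 685 anti-PD1 cells held 654, or 191 CPM (177 to 206). The ratio was 5.15 (4.02 to 6.71), beside 6.94% of the 8097 measured genes at 1.5-fold or more. Positive cells were 8.33% (5.61 to 11.8) and 20.4% (17.5 to 23.7), or 2.38% and 10.3% after thinning, at median depths of 4676.5 and 4293. The gate itself was 8.92% and 13.7% of Cd3 cells, so it gave 14.0% and 22.6% of their Areg UMIs. Together with the Foxp3 gate it held 84.4% of the Areg UMIs of anti-IgG Cd3 cells and 71.8% of those of anti-PD1 Cd3 cells.

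**Figure D3:**
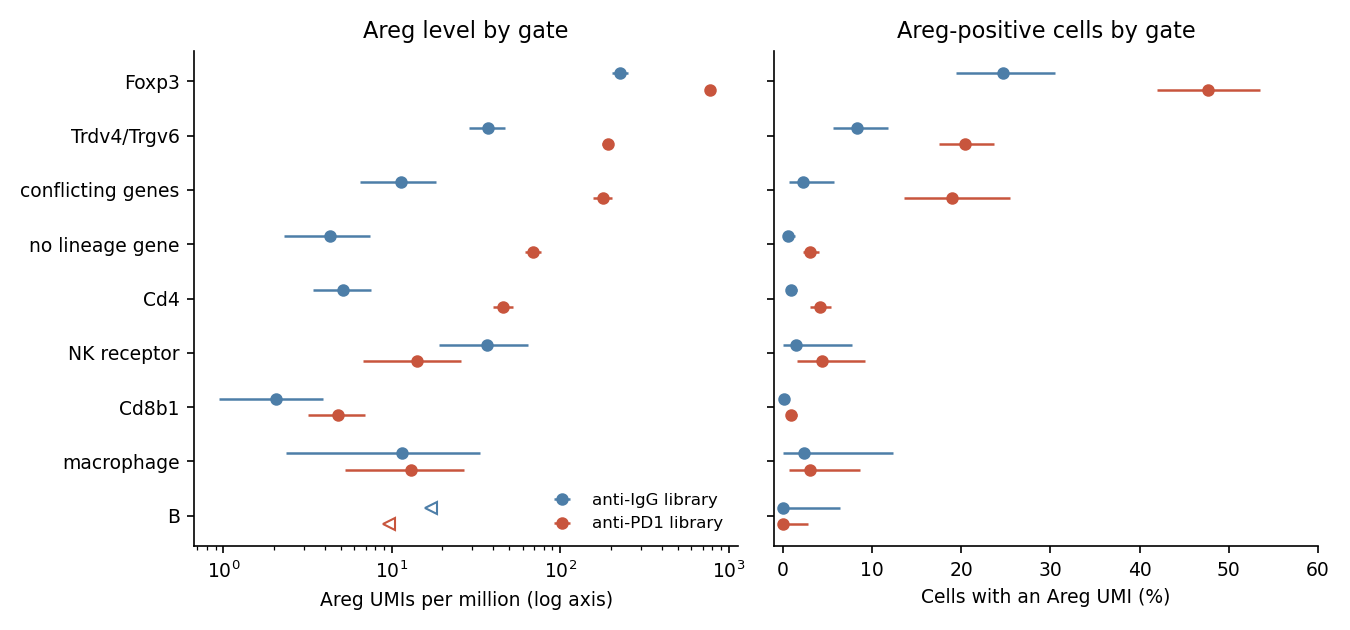
Areg level (left, CPM, log axis) and share of cells with an Areg UMI (right) in each gate of each library, with 95% counting intervals; open triangles give the upper bound where no UMI was found. Foxp3 leads in both libraries, 227 and 770 CPM, the Trdv4/Trgv6 gate follows among T cell gates with 37.1 and 191, and the B gate has none.

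Outside these gates Areg was sparse in the anti-IgG library and less so in the anti-PD1 library. Without the Foxp3 and Trdv4/Trgv6 gates the remaining Cd3 cells held 77 and 817 Areg UMIs, a ratio of 8.90 (7.04 to 11.4). The Cd4 gate, Cd4 cells without a Foxp3 UMI, had 27 UMIs in 1253 cells and 211 in 1163, or 5.14 (3.39 to 7.48) and 46.0 (40.0 to 52.6) CPM. That ratio was 8.94 (5.97 to 13.9), the 5th highest of 9297 genes, of which 5.2% were 1.5-fold higher or more. Few cells carried it: 11 and 48 were positive, and 1 anti-PD1 cell held 79 of the 211 UMIs. Without the highest cell of each library the ratio was 10.8 (6.19 to 20.2). Regulatory T cell genes were more frequent in the positive anti-PD1 cells of this gate: Ctla4 was seen in 64.6% against 26.3% of negative cells, Ikzf2 in 31.3% against 6.10% and Il1rl1 in 12.5% against 0.628%.

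Cd3 cells with no lineage gene detected had 13 UMIs in 852 cells and 320 in 1409, or 4.32 (2.30 to 7.39) and 69.2 (61.9 to 77.3) CPM. This ratio of 16.0 (9.24 to 30.4) was the highest of 8751 genes in the gate, 6.08% of which were 1.5-fold higher or more. It rests on 5 and 43 positive cells, 1 of which held 106 of the 320 UMIs. The 43 positive anti-PD1 cells carried some genes of the main sources more often: Ctla4 was seen in 55.8% of them against 18.8% of the negative cells, Ikzf2 in 34.9% against 13.3% and Il17a in 18.6% against 4.10%. The gamma-delta genes Trdc (6.98% against 5.56%) and Il1r1 (4.65% against 3.29%) hardly differed. Ctla4 and Ikzf2 are regulatory T cell genes that other activated T cells also express. How many such cells are regulatory or gamma-delta cells whose lineage gene was not captured was not tested.

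Cytotoxic T cells had almost none. The Cd8b1 gate gave 9 UMIs from 1 of 833 anti-IgG cells and 28 from 10 of 1137 anti-PD1 cells, or 2.06 (0.942 to 3.91) and 4.82 (3.20 to 6.97) CPM. Macrophages gave 3 and 7 UMIs, 11.5 (2.37 to 33.5) and 13.1 (5.25 to 26.9) CPM. Fibroblasts and endothelial cells gave 0.

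The order of Areg levels in the anti-PD1 library ran from the Foxp3 gate to the Trdv4/Trgv6 gate and the cells with conflicting lineage genes (179 CPM, 157 to 203), which did not differ beyond their counting error. Below them came the cells without lineage gene, the Cd4 gate, and then NK receptor cells (14.0, 6.73 to 25.8), macrophages and the Cd8b1 gate, whose intervals overlapped. In the anti-IgG library the Foxp3 gate also led, and the Trdv4/Trgv6 and NK receptor gates overlapped below it (36.8, 19.0 to 64.2, in the latter from 12 UMIs of 1 cell). The conflicting cells were lower there, with 16 UMIs or 11.3 CPM (6.48 to 18.4), below the Trdv4/Trgv6 gate. Of the 34 Areg-positive conflicting cells in the anti-PD1 library 22 had a Foxp3 UMI and 20 a Trdv4 UMI. Of the 145 Areg-negative ones 8 had a Foxp3 UMI and 8 a Trdv4 UMI. Cells with Cd3 and another class's markers, 226 and 339 cells that may be pairs of cells, had a median depth of 11085 and 9555 UMIs. They held 120 and 404 Areg UMIs, or 40.0 and 104 CPM, and were kept out of the T cell gates. Doublets that share T cell markers were not removed: removing the highest doublet scores left the Areg ratio in Cd3 cells at 4.37 (3.96 to 4.82).

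Genes with the most similar level pattern to Areg were Il2ra (Pearson r 0.87), which encodes the IL-2 receptor alpha chain of activated and regulatory T cells, Itgav (0.83), Stx11 (0.83), Tnfrsf9 (0.83) and Srgn (0.81). The correlation ran over 22 points, 11 gates with 50 or more cells in each of the 2 libraries, on log2 of CPM plus 10, among 10365 genes. The points share library and depth, so r is a description.

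Areg-positive cells were also compared with Areg-negative cells of the same library by summed levels. Over all Cd3 cells, 111 and 425 were positive, with median depths of 5844 and 4813 UMIs against 3943 and 3667. The 10 genes with the highest ratio in both libraries were Cxcl3, Il1r2, Cxcl2, Dgat2, Il1rl1, Itgb8, Alox8, Klrg1, Ebi3 and Foxp3. Foxp3 itself was seen in 56.8% of positive and 5.28% of negative anti-IgG cells, and in 39.1% and 3.62% of anti-PD1 cells. Il1rl1 was 17.2 and 22.1 times as high in positive cells. Cxcl2, a neutrophil-attracting chemokine, was 46.1 and 20.8 times as high, and Il1r2, the decoy receptor for IL-1, 40.7 and 24.4 times.

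Inside the Foxp3 gate the positive cells stood out by a smaller margin. Cxcl2 was 6.26 and 4.71 times, Il1r2 5.07 and 3.89 times, and Dgat2, an enzyme of triglyceride synthesis, 3.58 and 3.56 times as high as in negative cells. Ifitm2, Cxcl3, Alox8, Ccrl2, Pcyt1a and Myo1e followed. Il1rl1 was detected in 68.9% of Areg-positive against 27.4% of Areg-negative anti-IgG cells and in 54.9% against 17.1% of anti-PD1 cells. Igkc, an immunoglobulin gene of B cells, led this comparison at 4.74 and 6.31 times. Any of the 5 B cell markers was found in 8.91% and 10.6% of all Foxp3-gated cells. In the Trdv4/Trgv6 gate it was 30.7% and 18.2%, in the anti-IgG library from Cd79b alone. Any of 6 neutrophil markers was found in 6.48% and 6.29% of Foxp3-gated cells. S100a9, Csf3r and Retnlg had no UMI in the anti-IgG cells of the gate. In its anti-PD1 cells 5 of the 6 had none, which left Mmp9 alone. The part of such RNA was not tested. Positive cells were deeper here too, at medians of 7869 and 5599.5 UMIs against 3934.5 and 4266.5.

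In the Trdv4/Trgv6 gate, where depth was alike (4640 and 4471 in positive, 4676.5 and 4228 in negative cells), another set led. Il17a, the signature cytokine of these cells, was 4.34 and 1.70 times as high in positive cells and was seen in 78.6% and 76.4% of them against 46.4% and 52.8% of negative cells. The nuclear receptors Nr4a3 (2.95 and 1.70 times) and Nr4a1 (2.02 and 1.62 times), the NF-kB regulator Nfkbid (2.42 and 1.65 times) and the integrin gene Itgae (1.66 and 1.70 times) were also among the 10, with Cxcl2, Gadd45b, Chad and Odc1. Hspa1b headed them at 6.27 and 6.17 times, a heat shock gene seen in only 7.14% and 4.29% of the positive cells. Cxcl2 was the 1 gene on both gates' lists of 10. Nr4a3 and Nr4a1 were not particular to this gate. In the Foxp3 gate they were 2.67 and 1.77 times and 2.88 and 1.81 times as high in Areg-positive cells, below that gate's 10.

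Known inducers and regulators of Areg were read next: the receptors of IL-33, IL-18 and IL-1, the CREB family and its partners, AP-1 and the Nr4a receptors. The list was written with earlier results of these data known, so its counts are a description. Of 22 such genes 20 were measured in Cd3 cells, and 10 were at least 1.5-fold higher in the anti-PD1 library and 0 lower. Of all measured genes 6.27% were higher and 9.74% lower. The list's median log2 ratio was 0.54 against -0.10 for all genes. Atf3, of the CREB and ATF family, had 73 and 626 UMIs, 4.11 and 28.0 CPM, a ratio of 6.80 (5.33 to 8.79). Nr4a3 went from 56.5 to 299 CPM between the libraries, 5.29 times (4.95 to 5.66), Fosl2 from 51.7 to 271, 5.24 times (4.88 to 5.62), and Nr4a1 from 105 to 510, 4.84 times (4.61 to 5.09). These transcription factors respond to T cell receptor and cAMP signals. Elsewhere in the CREB family and its partners, Crem was 4.31 times and Creb3l2 1.61 times as high. Creb1, at 0.775 (0.717 to 0.837), and Crtc2, at 1.16 (1.06 to 1.27), did not reach 1.5-fold. Of the receptors, Il1r1 was past 1.5-fold, with 450 and 906 UMIs, 25.3 and 40.5 CPM, a ratio of 1.60 (1.42 to 1.79). Areg-negative cells of the Trdv4/Trgv6 gate held 335 and 583 of these UMIs, 195 and 217 CPM. The gate's Areg-positive cells held 32 and 176, 218 and 240 CPM. That gate was 8.92% and 13.7% of Cd3 cells, and the part of this difference in the Il1r1 ratio was not tested. Il1rl1 had 17.7 and 19.7 CPM, a ratio of 1.12 (0.964 to 1.29), and Il18r1 0.860 (0.810 to 0.913).

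**Figure D4:**
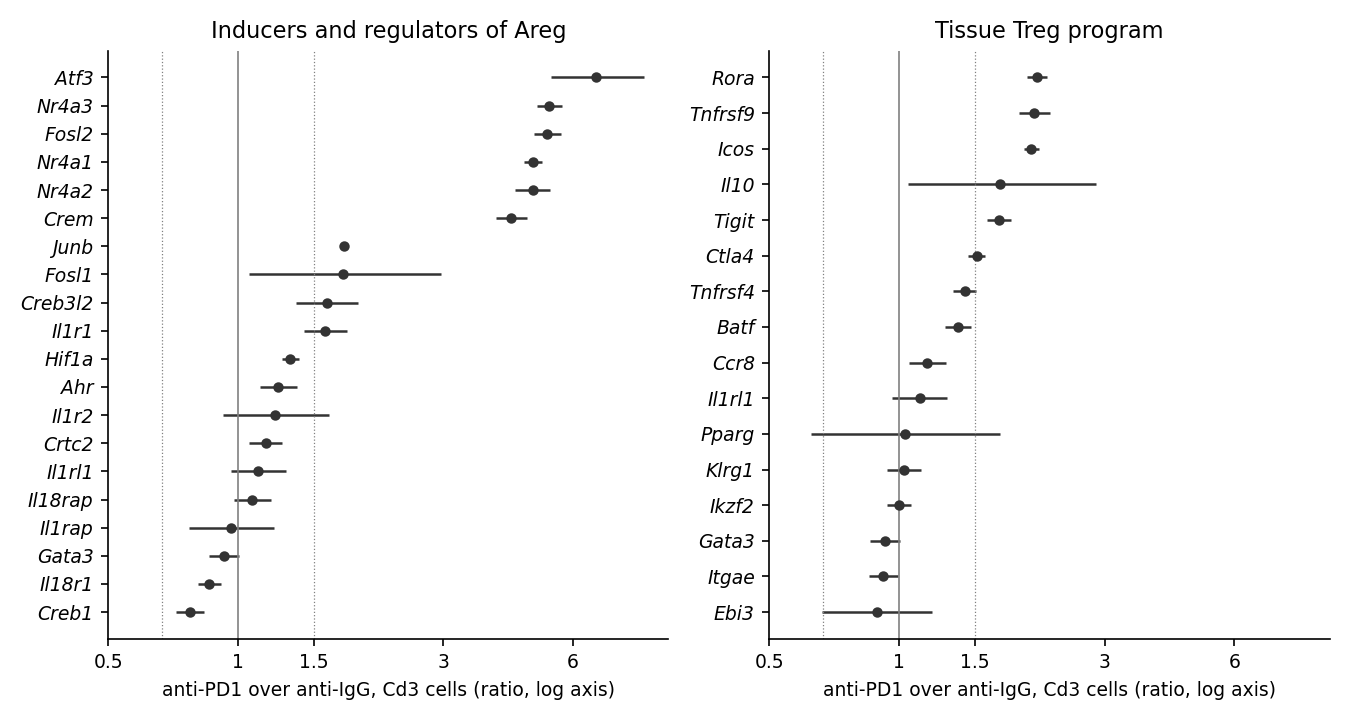
Ratio of the level in anti-PD1 over anti-IgG Cd3 cells (log axis) with 95% counting intervals, for the measured inducers and regulators of Areg (left) and the tissue regulatory T cell genes (right); dotted lines mark 1.5-fold. Atf3, the 3 Nr4a genes, Fosl2 and Crem stand at 4-fold or more, while Il1rl1 and Klrg1 stay near 1.

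Some genes of this list are also induced while tissue is digested. Of 18 digestion-related genes, a list added after the data were seen, 4 were at least 1.5-fold higher and 5 lower in anti-PD1 Cd3 cells. For all measured genes the shares were 6.27% and 9.74%. Atf3, Junb (1.77), Ier2 (1.54) and Ier3 (1.57) were higher, while Fos (0.590), Fosb (0.663), Jun (0.565), Hspa1a (0.515) and Hspa1b (0.498) were lower. In Cd3 cells without a Fos UMI the Areg ratio was 3.56 (3.08 to 4.12), and in those without Hspa1a or Hspa1b it was 4.14 (3.74 to 4.59). Cells without any Nr4a1, Nr4a2 or Nr4a3 UMI numbered 2486 among anti-IgG and 1230 among anti-PD1 Cd3 cells. Their Areg level was 8.21 and 17.6 CPM, a ratio of 2.15 (1.55 to 2.97) from 86 and 73 UMIs, with only 1.13% and 1.95% of them positive. Such cells of the Foxp3 gate, 118 and 39, held 60 and 27 Areg UMIs, with 10.2% and 17.9% positive. Their level was 106 and 233 CPM, a ratio of 2.21 (1.35 to 3.53). Those of the Trdv4/Trgv6 gate, 205 and 97, held 14 and 16, with 4.39% and 5.15% positive. Their level was 13.5 and 44.7 CPM, a ratio of 3.31 (1.52 to 7.33).

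The promoter letters of the list were searched in the same way. The shorter CRE core TGACG, which the full CRE contains, was present in 7 of the 8 higher genes that had a promoter entry (Atf3, Nr4a1, Nr4a2, Nr4a3, Junb, Creb3l2 and Il1r1) and in 1 of the other 10 (Il1rl1), of which Il18 and Il33 had too few UMIs to be measured, beside 23.0% of all genes with an entry. No gene of either set had the full CRE, and none had the AP-1 motif TGANTCA. The list was chosen with earlier results of these data known and was split by these same ratios. The motif counts are therefore a description of letters and not a test.

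The tissue regulatory T cell genes gave a mixed picture. Of 16, all measured, 6 were at least 1.5-fold higher and 0 lower, beside 6.27% and 9.74% of all measured genes. The median log2 ratio of the 16 was 0.34. Rora had 106 and 222 CPM (2.09 times, 1.98 to 2.20), the costimulatory receptor gene Tnfrsf9 42.8 and 88.3 (2.06 times, 1.90 to 2.25) and Icos 194 and 394 (2.03 times, 1.95 to 2.11). Il10, a suppressive cytokine gene, had a ratio of 1.71 (1.05 to 2.87) from 25 and 54 UMIs. Klrg1 (1.03, 0.938 to 1.12) and Ikzf2 (1.00, 0.940 to 1.07) had like levels. These genes are expressed by other activated T cells too.

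Hbegf (chr18:36504927-36515805, minus strand), the other EGF receptor ligand measured, had most of its Cd3 cell UMIs in the Trdv4/Trgv6 gate. That gate held 47 of 70 UMIs of anti-IgG Cd3 cells and 95 of 137 of anti-PD1 Cd3 cells, 67.1% and 69.3%. In all Cd3 cells the level was 3.94 (3.07 to 4.98) and 6.12 (5.14 to 7.23) CPM, a ratio of 1.55 (1.16 to 2.10). Within the gate it was 25.2 (18.6 to 33.6) and 27.8 (22.5 to 33.9), a ratio of 1.10 (0.767 to 1.59), and 8.93% (6.11 to 12.5) and 7.74% (5.85 to 10.0) of cells were positive. Thinned to 1000 UMIs the order of the shares turned, to 1.79% (0.658 to 3.85) and 3.09% (1.92 to 4.68), and the ratio of levels was 2.12 (0.911 to 5.71) from 7 and 30 UMIs. At the same mix of gates in both libraries the Cd3 ratio was 1.16, under the 1.5-fold line. The gate's own share of Cd3 cells, given above, was larger in the anti-PD1 library.

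Of the other T cell gates, cells without a lineage gene held 11 and 21 Hbegf UMIs and the Foxp3 gate 2 and 4, and the B gate had 0. The small endothelial gate had 6 and 6 UMIs, 25.7 (9.43 to 55.9) and 47.0 (17.2 to 102) CPM, which overlapped the Trdv4/Trgv6 level. Positive Trdv4/Trgv6 cells did not carry Areg more often than others in the anti-PD1 library, 11 of 53 Hbegf-positive cells (20.8%, 10.8 to 34.1) against 129 of 632 (20.4%, 17.3 to 23.8). In the anti-IgG library it was 5 of 30 against 23 of 306. Lif was seen in 5 of the 53 Hbegf-positive anti-PD1 cells (9.43%, 3.13 to 20.7) and in 3 of the 632 others (0.475%, 0.0980 to 1.38). The genes most like Hbegf across gates were Pde5a (r 0.85), Zbtb16 (0.85), which encodes the innate T cell factor PLZF, Sdccag8, Tppp3 and Clasp2.

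Other EGF family ligands were near the limit of detection. In Cd3 cells Egf gave 16 and 12 UMIs, Nrg4 15 and 20, Tgfa 9 and 18 and Btc 3 and 8, while Ereg, Epgn and Nrg1 gave 0. Genes of ligand release did not pass 1.5-fold: of 6, 4 were measured, 0 were higher and 0 lower, with Adam17 at 37.1 and 42.0 CPM, a ratio of 1.13 (1.02 to 1.25).

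The receptor was in other cells. Egfr had 25 and 22 UMIs in the fibroblast gate, 170 and 150 CPM, from only 16 and 14 cells, and 2 and 6 UMIs in all Cd3 cells. Feedback genes of the EGF receptor pathway were measured in T cells. Of 9 receptor and feedback genes 5 were measured, 3 were at least 1.5-fold higher and 0 lower. For all measured genes the shares were 6.27% and 9.74%. Errfi1, an inhibitor of the receptor that many stimuli induce, had 21.6 and 50.3 CPM in Cd3 cells, 2.33 times (2.07 to 2.62), Spry2 2.65 and 5.09, 1.92 times (1.36 to 2.76), and Spry1, just past the 1.5-fold line, 16.1 and 24.2.

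Pdgfb had its highest level in endothelial cells. The gate held 44 and 31 cells, 71 and 25 UMIs, or 304 (238 to 384) and 196 (127 to 289) CPM, and 52.3% (36.7 to 67.5) and 38.7% (21.9 to 57.8) of cells were positive. The ratio of 0.644 (0.391 to 1.03) did not differ from 1 beyond counting error, and without the highest cell of each library it was 0.544 (0.306 to 0.925). In Cd3 cells Pdgfb had 5.74 (4.68 to 6.97) and 4.96 (4.08 to 5.97) CPM, a ratio of 0.863 (0.654 to 1.14).

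Among T cell gates Pdgfb was most frequent in cells with an NK receptor (Ncr1 or Klrb1c), 10 of 70 and 10 of 138 cells, 14.3% (7.07 to 24.7) and 7.25% (3.53 to 12.9). After thinning to 1000 UMIs no such cell was positive, so the order rests on low counts. The Trdv4/Trgv6 gate had 25 and 29 UMIs, 13.4 and 8.47 CPM, a ratio of 0.631 (0.357 to 1.12), and the Cd8b1 gate 26 and 31, 5.95 and 5.34 CPM. Macrophages had 6 and 22 UMIs, 23.0 and 41.0 CPM, a ratio of 1.79 (0.703 to 5.39). Genes most like Pdgfb across gates were Sdcbp (r 0.90), Tspan4, Ptpre, Fes and Mapk3, over gates that do not include the small endothelial gate.

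The PDGF receptors were in stroma. Pdgfra, itself one of the fibroblast markers, had 252 and 177 CPM in the fibroblast gate and 0 UMIs in Cd3 cells, and Pdgfrb 170 and 47.6, from 25 and 7 UMIs. In the list of 9 PDGF, VEGF and FGF genes 3 were measured in Cd3 cells, with 1 at least 1.5-fold higher, beside 6.27% of all measured genes. Vegfa, the endothelial growth factor, was higher, with 17 and 97 UMIs, 0.957 and 4.33 CPM, a ratio of 4.53 (2.69 to 8.08).

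**Figure D5:**
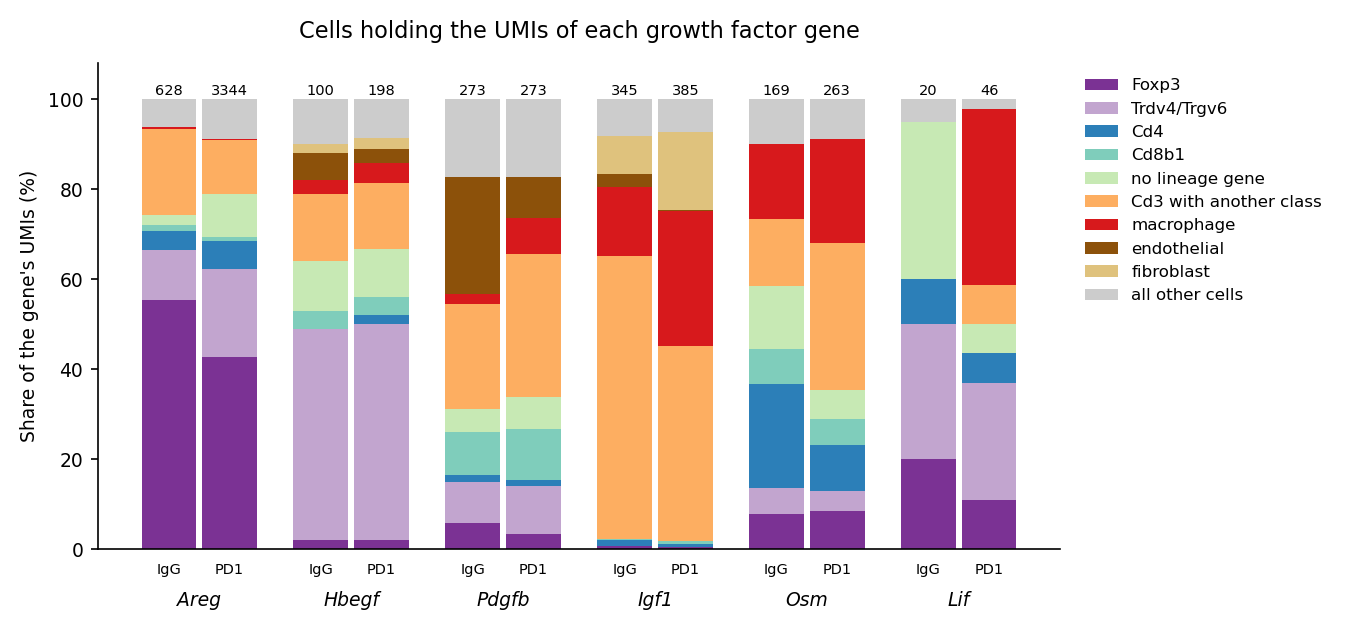
Share of each gene's UMIs (y axis, percent) that each gate held, with the anti-IgG library at the left and the anti-PD1 library at the right of each pair and the UMI total above each bar. Areg sits mostly in the Foxp3 and Trdv4/Trgv6 gates, Hbegf has its largest share in the Trdv4/Trgv6 gate (47.0% and 48.0%), and Igf1 sits in macrophages, fibroblasts and cells with Cd3 and another class's markers.

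Igf1 was not a T cell product at this depth. Cd3 cells held 8 UMIs in each library, 0.450 (0.194 to 0.888) and 0.357 (0.154 to 0.704) CPM. The 43 and 99 macrophage-gated cells held 53 and 115 UMIs, 203 (152 to 265) and 215 (177 to 258) CPM, and 44.2% and 44.4% of them were positive. That ratio was 1.06 (0.758 to 1.49). The 16 and 14 fibroblasts held 29 and 67, 198 (132 to 284) and 456 (353 to 579) CPM, a ratio of 2.31 (1.47 to 3.70) from 10 and 7 positive cells.

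Most other Igf1 UMIs lay in cells with Cd3 and another class's markers, 217 and 167, of which 186 and 149 were in cells with macrophage markers. The genes most like Igf1 across gates were the macrophage genes Mertk (r 0.99), Mrc1, C1qa and C1qb, and Sash1, over gates that do not include the small macrophage and fibroblast gates. Mrc1, C1qa and C1qb also define the macrophage gate. On the receptor side, Igf1r had 13.3 and 16.8 CPM in Cd3 cells and its highest T cell level in the Trdv4/Trgv6 gate, 55.3 and 59.6 CPM. Of 13 genes of the IGF list 6 were measured, and 1 was higher, beside 6.27% of all measured genes. It was Irs2, an adaptor of the insulin and IGF receptors, with 10.0 and 33.6 CPM, 3.35 times (2.85 to 3.97).

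Osm was spread thinly over T cells and was higher in macrophages. Cd3 cells held 111 and 101 UMIs, 6.25 (5.14 to 7.53) and 4.51 (3.67 to 5.48) CPM, a ratio of 0.722 (0.546 to 0.953) that did not reach 1.5-fold. It was 0.601 (0.424 to 0.848) in cells at or above the median depth and 1.05 (0.630 to 1.77) in those below. No Cd3 cell had more than 2 Osm UMIs. Of Cd4-gated cells 2.95% (2.09 to 4.05) and 2.06% (1.33 to 3.06) were positive, beside 1.79% (0.0452 to 9.55) and 1.53% (0.185 to 5.41) of B cells, so stray RNA is not told apart from low expression there.

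Macrophages held 28 and 61 Osm UMIs, 107 (71.2 to 155) and 114 (87.0 to 146) CPM, a ratio of 1.06 (0.669 to 1.73). Neutrophils, a known source of oncostatin M, were represented by 2 and 3 cells with 3 UMIs in each library. Rab20 (r 0.82), Gm7367, E130208F15Rik, Nlrp3, the inflammasome sensor, and Rassf7 were most like Osm across gates, again without the macrophage gate.

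Lif was rare, with 20 and 24 UMIs in Cd3 cells, 1.13 (0.688 to 1.74) and 1.07 (0.687 to 1.59) CPM, a ratio of 0.952 (0.504 to 1.82). The Trdv4/Trgv6 gate held 6 and 12 of them and the Foxp3 gate 4 and 5. Macrophages had 0 UMIs in the anti-IgG and 18 in the anti-PD1 library, all 18 in 1 cell, which was 39.1% of all Lif UMIs of that library.

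Receptors of both cytokines were outside T cells except for the shared subunit. Osmr had 124 and 133 CPM in endothelial cells and 54.5 and 68.0 in fibroblasts, from 29 and 17 and from 8 and 10 UMIs. Lifr had 195 and 134 CPM in macrophages. Il6st had 40.0 and 47.9 CPM in Cd3 cells, with 60.1 and 84.2 in the Foxp3 gate, 42.3 and 62.5 in the Cd4 gate and only 10.2 and 7.89 in the Trdv4/Trgv6 gate. Of 10 IL-6 family receptor and signalling genes 7 were measured, 2 were at least 1.5-fold higher in the anti-PD1 library and 1 lower. For all measured genes the shares were 6.27% and 9.74%. Stat3, which relays IL-6 family signals, had 153 and 253 CPM (1.65 times, 1.58 to 1.73). The kinase gene Pim1 had 275 and 444 (1.61 times, 1.56 to 1.67), and Il6ra 82.7 and 54.9 (0.663, 0.615 to 0.716). Of 9 ligands of the family 2 were measured, Osm and Clcf1, with neither past 1.5-fold, and Il6, Il11, Ctf1, Il27 and Il31 gave 0 UMIs in Cd3 cells.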

How the data were processed

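Per the labels' protocols, digested hearts were profiled with a 10x 3' kit. The authors deposited unnormalized UMI counts for each gene in each barcode. Cell Ranger 7.1.0 wrote them, per the file headers. The submitters' processing notes list mm10, Seurat 4.4.0 and Cell Ranger 7.2.0. The annotation used for counting is not given in those sources. Gene positions come from GENCODE vM21 and promoters from RefSeq (GRCm38.p6).

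The filter on cells asked for 300 genes, 500 UMIs and no more than 10% of UMIs from mitochondrial genes. Other cell classes needed 1 to 4 markers of their lists. Cd3 cells were gated by at least 1 UMI of Foxp3 (without Trdv4 or Trgv6) or of Trdv4 or Trgv6 (without Foxp3). Cells with none of these genes were gated by Cd4 or Cd8b1 alone. Conflicting cells had Foxp3 with Trdv4 or Trgv6, or lacked all of these and had both Cd4 and Cd8b1. Shares were also computed with cells thinned to 1000 UMIs. Doublets were kept. Scrublet (scanpy 1.11.5) marked only 0 and 4 cells by its own threshold, so an alternative removed the highest scores at 0.8% per 1000 cells.

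Genes with 50 or more summed UMIs were called measured, and 1.5-fold is a fixed size, not a test. Named are the members, the up to 4 highest and lowest genes per list past 1.5-fold, receptors, the 5 genes most like a member, and the 10 highest in Areg-positive cells; others named were chosen after their values were seen. The members and lists were chosen with earlier results of these data known. The fold calculation was tested on simulated counts.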

Additional observations from a re-analysis of the deposited data

Results flagged for a closer look

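Ratios of the same gene lay on opposite sides of 1 in different gates, beyond counting error, for 3 members, and the differences between gates were not tested. The Areg ratio, anti-PD1 over anti-IgG, was 3.39 in the Foxp3 gate, but 0.382 in the NK receptor gate (12 and 10 UMIs, the 12 from 1 cell) and 0.133 among plasmacytoid dendritic cells (7 UMIs from 1 cell and 2 UMIs). The Igf1 ratio was 2.31 in fibroblasts (29 and 67 UMIs) and 0.594 in cells with Cd3 and another class's markers (217 and 167 UMIs). The Osm ratio was 2.65 in the latter cells (25 and 86 UMIs) and 0.461 in Cd3 cells without a lineage gene (24 and 17 UMIs).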

How the results depend on the processing

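Of 121 ratios, share ratios and counts recomputed, 104 stayed within the main value's interval (counts within 1.5 times) and 17 did not. None changed sides of 1 where the main interval excluded 1. Thinning to 1000 UMIs moved the most, with few UMIs left. The Cd3 ratio became 5.26 for Areg, 3.26 for Hbegf (9 and 39 UMIs) and 0 for Igf1 (3 and 0 UMIs), and none could be computed for Lif. In gates it became 7.28 for Areg in the Trdv4/Trgv6 gate, 8.91 for Areg without a lineage gene, 2.12 for Hbegf in the Trdv4/Trgv6 gate, and in macrophages 1.73 for Igf1 and 4.56 for Osm (1 and 10 UMIs). Ratios of positive shares became 2.71 and 4.32 for Areg in the Foxp3 and Trdv4/Trgv6 gates, 1.73 for Hbegf in the latter and 1.55 for Igf1 in macrophages. The Areg ratio was 3.90 in Cd3 cells without any macrophage, neutrophil, endothelial or fibroblast UMI and, in a check added after seeing the data, 8.90 without the Foxp3 and Trdv4/Trgv6 gates. With lineage genes asked at 2 UMIs it was 7.55 in cells without a lineage gene, where more cells then fall. The share ratio of Areg in the Cd4 gate was 9.34 at 2 UMIs. With genes of 1 or more UMI, 5 EGF receptor and feedback genes were 1.5-fold higher, since more are tested. Otherwise the cause was not tested. Leaving out the 47 shared barcodes, also added later, changed no ratio beyond its interval. No paired analysis was possible because each group has 1 library. Depth limits Igf1 and Lif in T cells, whose ratio intervals run from 0.259 to 2.42 and from 0.504 to 1.82.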
